A study of Mus musculus with 9 samples.

Results

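The MHC class I set comprised 10 genes of the 22173 in the files. The genes were chosen by name for their place in the class I pathway, with earlier results of these data known. They are B2m, the heavy chain genes H2-K1, H2-D1, H2-Q4, H2-Q7 and H2-T23, the transporter genes Tap1 and Tap2, Tapbp, and Psmb8. All 10 were in the files, had counts in every library and passed the filter on low counts that left 12094 genes for testing. The cells were primary neutrophils taken from the bone marrow of wild-type mice and held for 2 days in gelatin methacryloyl (GelMA) hydrogel, a gelatin made to crosslink to a chosen stiffness. Gels had an elastic modulus of 1.5 kPa (low, the control), 2.6 kPa (middle) or 5.7 kPa (high), with 3 RNA-seq libraries in each group and 9 in all. Every group was in gel, in RPMI medium with fetal bovine serum, so no library shows the cells before culture or outside a gel. By its title, the series concerns the effect of stiffness on neutrophil polarization. Age and sex of the mice are not in the labels, and neither is the source of a replicate (an animal, a culture), so a p-value here reflects library-to-library spread only, possibly technical.

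Class I molecules show peptides from inside the cell to CD8 T cells and to natural killer cells, and nearly every nucleated cell carries them. A heavy chain pairs with beta-2 microglobulin in the endoplasmic reticulum, where peptides cut by the proteasome arrive through the TAP transporter and are loaded with the help of tapasin. Transcription of these genes is known to rise with interferon through IRF factors, with NF-kB, and with NLRC5, a coactivator that works through conserved promoter boxes.

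The promoters are shown because spellings bound by IRF and NF-kB factors occur in some members and not in others. The S and X boxes through which NLRC5 works were not searched as whole boxes. The RefSeq table used here, on build GRCm38.p6, holds the 250 bases before the annotated start of 9 of the 10 members, and Tap2 has no entry. The files themselves use GRCm39 and give no coordinates, so positions refer to GRCm38.p6 only. Each window below runs 5′ to 3′ on the gene's own strand, from 10 bases before its first to 10 bases after its last motif match where the 250 bases allow, and all lie upstream of the annotated start. Capitals mark the matches. The spellings searched, on both strands, were GAANNGAAA (an IRF element), GAAA and GAAA with 2 bases between (the interferon-stimulated response element, ISRE), TTCNNNGAA (the gamma-activated site, GAS), GGGGATTCC and GGG and TTTCC with 2 bases between (NF-kB), TGACG (the core bound by CREB) and CCAAT. No match of one spelling overlapped a match of another in the members. The windows are chr2:122147538-122147648 (plus strand) for B2m, chr17:34000349-34000468 (minus strand, the first of 2 annotated starts) for H2-K1 and chr17:35262913-35263055 (plus) for H2-D1. They are chr17:35379433-35379576 (plus) for H2-Q4, chr17:35439012-35439153 (plus) for H2-Q7 and chr17:36032739-36032835 (minus) for H2-T23. For the loading genes they are chr17:34187324-34187484 (plus) for Tap1, chr17:33919228-33919327 (plus) for Tapbp and chr17:34198088-34198116 (plus) for Psmb8.
B2m: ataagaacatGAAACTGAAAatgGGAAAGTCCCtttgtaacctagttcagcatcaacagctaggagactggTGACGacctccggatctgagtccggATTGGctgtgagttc
H2-K1: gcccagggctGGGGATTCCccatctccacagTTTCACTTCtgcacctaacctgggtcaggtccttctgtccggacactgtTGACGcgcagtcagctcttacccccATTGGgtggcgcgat
H2-D1: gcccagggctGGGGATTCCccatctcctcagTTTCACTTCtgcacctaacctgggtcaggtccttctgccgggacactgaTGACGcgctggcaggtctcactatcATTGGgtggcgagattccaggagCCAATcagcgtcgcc
H2-Q4: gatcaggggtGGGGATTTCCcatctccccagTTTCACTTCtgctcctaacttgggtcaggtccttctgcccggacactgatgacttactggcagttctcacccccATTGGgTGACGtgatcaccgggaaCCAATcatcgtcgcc
H2-Q7: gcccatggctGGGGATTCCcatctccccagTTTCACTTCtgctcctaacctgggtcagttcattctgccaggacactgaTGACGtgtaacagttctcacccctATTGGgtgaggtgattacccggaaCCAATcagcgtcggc
H2-T23: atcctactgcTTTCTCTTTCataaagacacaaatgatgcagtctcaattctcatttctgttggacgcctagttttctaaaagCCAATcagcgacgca
Tap1: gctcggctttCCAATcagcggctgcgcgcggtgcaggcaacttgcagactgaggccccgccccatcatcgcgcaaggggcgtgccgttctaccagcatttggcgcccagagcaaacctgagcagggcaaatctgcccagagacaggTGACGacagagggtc
Tapbp: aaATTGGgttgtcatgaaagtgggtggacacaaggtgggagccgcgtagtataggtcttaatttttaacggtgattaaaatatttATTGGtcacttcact
Psmb8: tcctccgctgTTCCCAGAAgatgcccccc

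B2m, H2-K1, H2-D1, H2-Q4 and H2-Q7 each held an IRF-type spelling, an NF-kB spelling, a CREB core and a CCAAT box. That combination occurred in 9 of the 32851 promoters of the table (0.0274%), these 5 members among them. An IRF-type spelling was present in 6 of the 9 members against 8.82% of all promoters, and an NF-kB spelling in 5 against 1.62%. H2-K1, H2-D1, H2-Q4 and H2-Q7 are close copies of each other with much the same window, so their matches are not separate occurrences. The 32851 promoters belong to 27025 symbols, and H2-K1 has 2 of them. The shares among members are therefore a description and not a measure of enrichment. H2-T23 held an ISRE and a CCAAT box, Tap1 a CREB core and a CCAAT box, Tapbp 2 CCAAT boxes, and Psmb8 a GAS. The short spellings are common, with TGACG in 17.8% and CCAAT in 33.8% of promoters, GAS in 7.02%, GAANNGAAA in 6.31% and the ISRE in 2.98%. In H2-K1, H2-D1, H2-Q4 and H2-Q7 the NF-kB spelling lay upstream of the IRF element and the CREB core downstream of it, while in B2m the ISRE came first. The start of Tap1 lies 226 bases from that of Psmb9 on the opposite strand, so these 2 genes share an upstream region. A match describes letters in this window and not binding, and no match says only that these letters are not in the window.

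**Figure D1:**
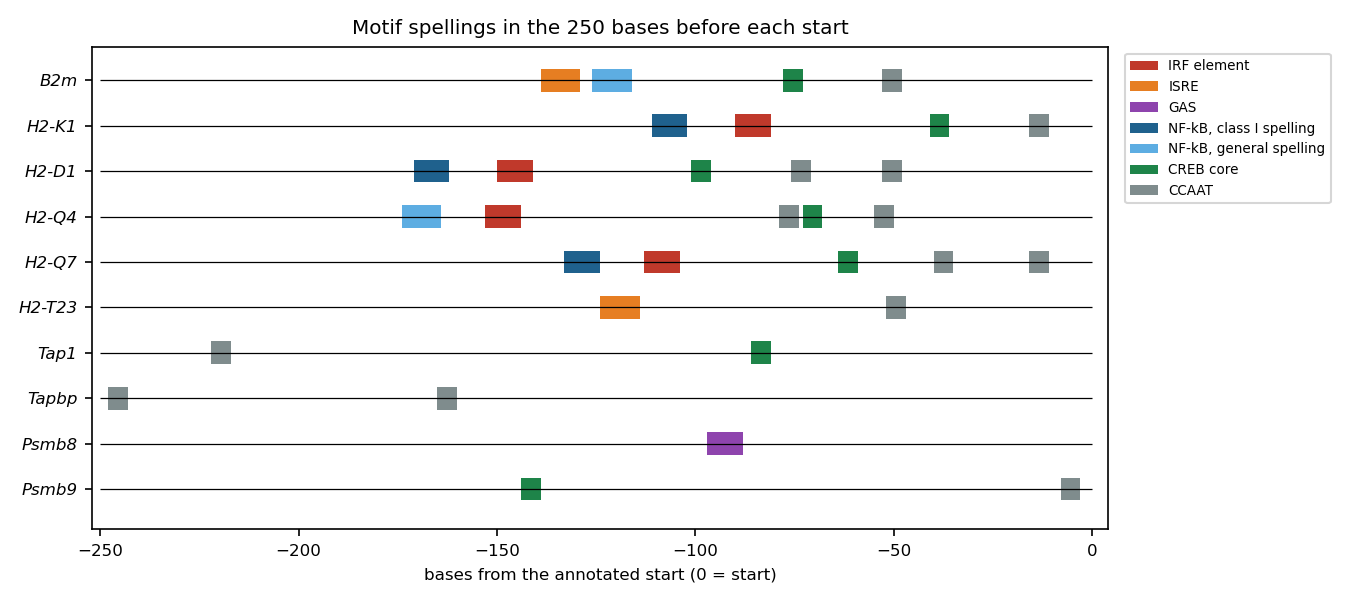
Positions of the motif spellings in the 250 bases before the annotated start of 9 members and of Psmb9, with the distance from the start in bases on the x axis and 1 gene per line. Coloured blocks mark the matches, and the 5 genes at the top hold the IRF or ISRE, NF-kB, CREB and CCAAT spellings together.

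Total counts were 13.2 M to 19.5 M per library, and the 10 members took 0.654 to 1.22% of them. Libraries differed most by replicate number: between replicate 1 and replicates 2 and 3, 32.5% of tested genes were lower and 32.9% higher in replicate 1. Each result is therefore given from a fit without a replicate term and from a fit with the replicate number as a block. The fit without the term was set as the main one and the block as the alternative, because the labels give no pairing. The summed level of 12 neutrophil markers was 3650 to 4338 CPM (counts scaled to a common library total by the trimmed mean of M values, TMM) in replicate 1 of the 3 groups and 14166 to 19275 in the other 6 libraries. The neutrophil marker Ly6g ranged from 5.05 to 51.2 CPM. The macrophage and monocyte gene Gpnmb was at 1165 to 5709 CPM, so these libraries also held transcripts of macrophage markers, and no level is assigned to neutrophils alone.

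Per length of transcript, B2m was by far the most abundant member, with a mean of 5590 FPKM (a level per length and depth) over the 9 libraries. H2-D1 followed at 1222 and H2-K1 at 579 FPKM. Tapbp (182), H2-Q4 (146) and H2-T23 (133) lay next, then Psmb8 (69.9), Tap1 (43.3) and Tap2 (29.1), and H2-Q7 was lowest at 4.25 FPKM. Over libraries the ranges of B2m, H2-D1 and H2-K1 did not meet, those of neighbours from Tapbp down to Tap2 did, and H2-Q7 lay below all others. The class I heavy chain genes are close copies of each other, and settings for reads that fit several genes were not given in the sources used here, which makes the level of each, H2-Q7 above all, uncertain.

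B2m encodes beta-2 microglobulin, the light chain that every class I molecule needs. It stood at 4592.5, 6614 and 6447 CPM in low replicates 1, 2 and 3, at 3023, 5548 and 5346.5 CPM in middle, and at 2917, 3966 and 4708 CPM in high. Replicate 1 was the lowest library of each group, and the groups overlapped, but high was below low within each replicate number.

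H2-K1 and H2-D1 encode the classical heavy chains that present most peptides. H2-K1 stood at 1937, 1585 and 1468.5 CPM in low, 938, 1141 and 1181 CPM in middle and 830, 1104 and 1180 CPM in high. H2-D1 stood at 2983, 2532 and 2299 CPM in low, 1870, 1818 and 1964 CPM in middle and 1842.5, 1892 and 1899 CPM in high. For both genes every low library was above every library of the stiffer gels, and in low replicate 1 was the highest of the 3.

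H2-Q4, H2-Q7 and H2-T23 are nonclassical heavy chains, and H2-T23 encodes Qa-1, a ligand of the CD94/NKG2 receptors of natural killer cells. H2-Q4 stood at 456, 330 and 344 CPM in low, 180, 226 and 216 CPM in middle and 165, 202 and 241 CPM in high. H2-Q7 stood at 16.1, 9.86 and 8.02 CPM in low, 3.18, 5.74 and 4.03 CPM in middle and 3.34, 4.92 and 3.63 CPM in high. H2-T23 stood at 297, 226 and 203 CPM in low, 141, 148 and 161 CPM in middle and 138, 131 and 130 CPM in high. All 3 genes were higher in every low library than in any other, and H2-T23 was the only member whose middle and high libraries did not overlap either.

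Tap1 and Tap2 form the transporter that moves peptides into the endoplasmic reticulum. Tap1 stood at 147, 185 and 174 CPM in low, 61.6, 135 and 145 CPM in middle and 53.7, 115 and 133 CPM in high. Tap2 stood at 77.1, 81.2 and 83.4 CPM in low, 50.8, 76.1 and 81.3 CPM in middle and 47.4, 73.7 and 80.9 CPM in high. The low libraries of Tap1 were above all others, whereas those of Tap2 overlapped with middle and high, whose replicate 1 libraries lay far below the rest.

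Tapbp encodes tapasin, which holds empty class I molecules at the transporter. It stood at 583, 481 and 476 CPM in low, 538, 478 and 494 CPM in middle and 496, 483 and 477 CPM in high, and the 3 groups overlapped. Psmb8 encodes the immunoproteasome subunit LMP7. It stood at 128, 96.8 and 84.8 CPM in low, 70.0, 80.1 and 88.2 CPM in middle and 60.1, 80.2 and 80.7 CPM in high, and every high library was below every low one, with 80.7 against 84.8 CPM at the closest.

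**Figure D2:**
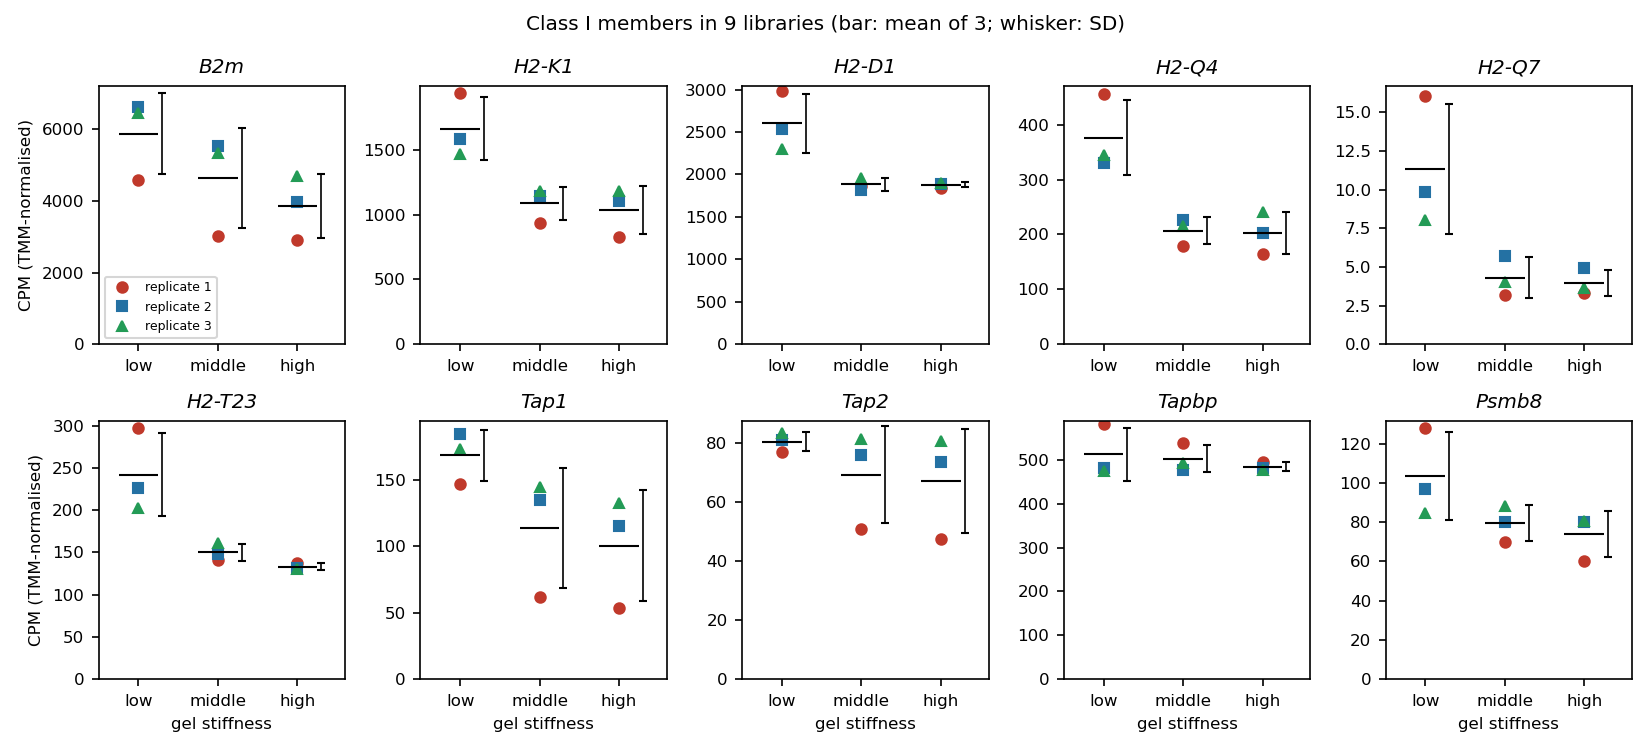
Level of each of the 10 members in each library, in TMM-normalised CPM on the y axis and by gel stiffness on the x axis. Symbols mark replicate numbers, black bars the mean of 3 libraries and whiskers the SD. H2-K1, H2-D1, H2-Q4, H2-Q7, H2-T23 and Tap1 have every low library above all others, and the groups of Tapbp overlap.

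The comparison of high with low stiffness spans the full range of gels. With the replicate number as a block, 7 of the 10 members fell in high: B2m, all 5 heavy chain genes and Tap1. H2-Q7 fell most, to a geometric mean ratio of 0.361 of low, and H2-D1 least among the heavy chains, to 0.725. Tap2, Tapbp and Psmb8 did not pass. In the main fit, without the replicate term, none of the 10 passed in edgeR, although all 10 estimates were below 0.

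By edgeR's quasi-likelihood test with Benjamini-Hochberg adjustment, log2 fold changes with the block were -0.61 ± 0.11 (SE) for B2m (adjusted p = 0.00517), -0.70 ± 0.15 for H2-K1 (0.0142) and -0.47 ± 0.11 for H2-D1 (0.0143). They were -0.90 ± 0.18 for H2-Q4 (0.0118), -1.49 ± 0.28 for H2-Q7 (0.00636), -0.85 ± 0.12 for H2-T23 (0.00119) and -0.85 ± 0.20 for Tap1 (0.0333). The members that did not pass had -0.29 ± 0.12 for Tap2 (0.122), -0.08 ± 0.08 for Tapbp (0.585) and -0.49 ± 0.19 for Psmb8 (0.126). With that block 8.73% of all tested genes were called lower and 6.72% higher. The median over the 10 members was -0.66, against -0.003 over all genes. At this threshold the loading genes were thus split, with the transporter gene Tap1 lower and no call for its partner Tap2 or for tapasin. The split depends on the threshold: unadjusted p in that edgeR fit was 0.0319 for Tap2, 0.0336 for Psmb8 and 0.389 for Tapbp. DESeq2 with the block called Psmb8 (adjusted p = 0.0319) and not Tap2 (0.164).

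Without the replicate term the same test gave adjusted p of 0.139 for H2-T23 (-0.86 ± 0.16), 0.225 for H2-Q4 (-0.89 ± 0.20) and 0.227 for H2-Q7 (-1.51 ± 0.34), and between 0.357 and 0.994 for the other 7. In this edgeR fit 0.091% of all tested genes were called in either direction. At an unadjusted p under 0.05 it counted 6 members, all lower, where 4.31% of all genes were lower. DESeq2 without the term called 5 members, where it called 1.29% of the genes it tested lower. The plot of fold changes shows both fits side by side: the estimates lie close together and the standard errors differ.

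In every low library 7 members were above every high library, namely H2-K1, H2-D1, H2-Q4, H2-Q7, H2-T23, Tap1 and Psmb8, a pattern that 6.76% of tested genes met. Within replicate numbers, high was below low in all 3 for 9 members, which 24.8% of tested genes met. Tapbp was the exception, with log2 differences of -0.23 in replicate 1 and of 0.0047 and 0.0021 in replicates 2 and 3. Without the 3 replicate 1 libraries and with a block, 7 members fell (B2m, the 5 heavy chains and Tap1), beside 14.1% of genes called lower. Without replicate 2 of every group none passed with the block, without replicate 3 of every group 4 did, and without high replicate 2 alone 2 did. The share of all genes called in these fits is not given here, so these counts may move with calls over all genes. Tap1 was called in 8 of the 16 fits with a block, so its call rests on the setting more than that of H2-T23, called in 15. In bulk libraries such as these, fewer cells of a type and less RNA per cell cannot be told apart.

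**Figure D3:**
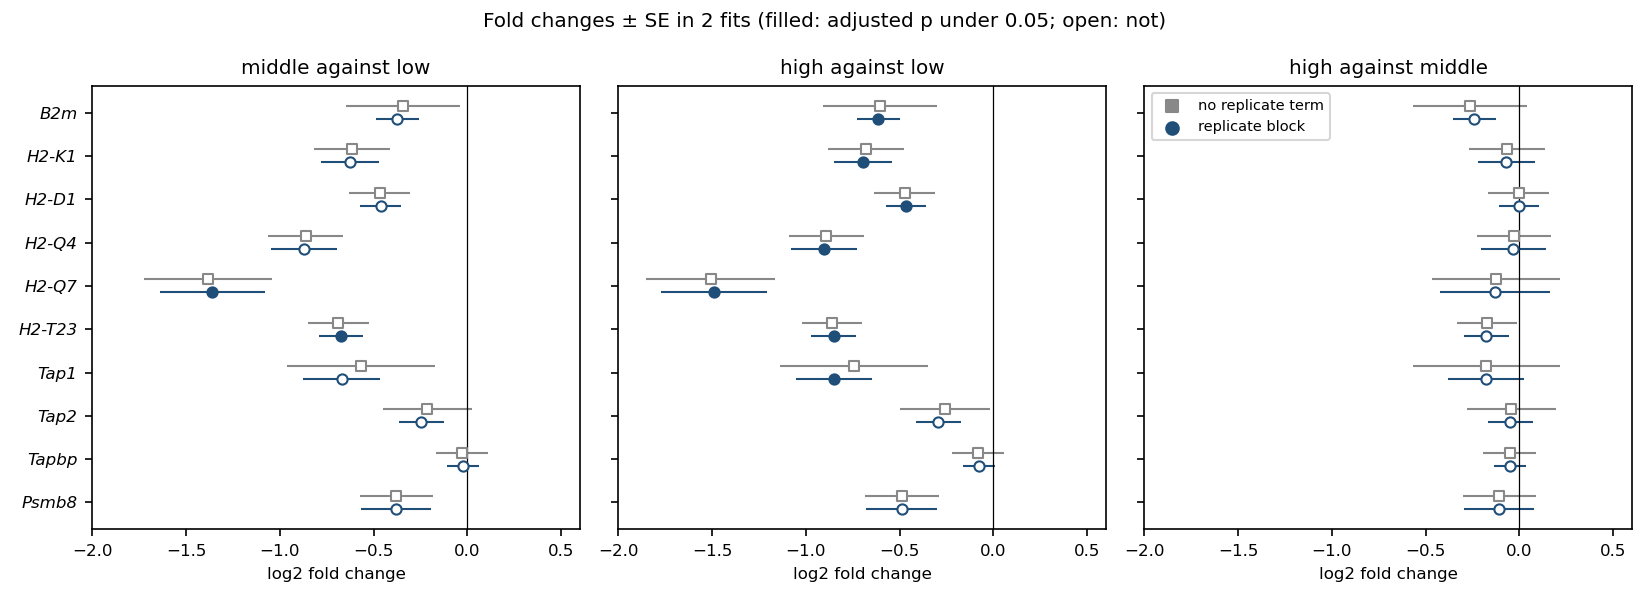
Log2 fold change ± SE of the 10 members in the 3 comparisons, in the fit without a replicate term (grey squares) and with the replicate block (blue circles). Filled symbols have an adjusted p under 0.05: 2 members in middle against low and 7 in high against low, all with the block, and none in high against middle.

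Middle against low asks whether the smaller step in stiffness shows the same members. With the block 2 of the 10 fell: H2-Q7 by 1.36 ± 0.28 on the log2 scale (adjusted p = 0.0368, edgeR) and H2-T23 by 0.67 ± 0.12 (0.0182). H2-Q4 (-0.87 ± 0.17, adjusted p = 0.0508), H2-D1 (-0.46 ± 0.11, 0.0566) and H2-K1 (-0.63 ± 0.15, 0.0762) missed the threshold narrowly in the same edgeR fit. Tap1 (-0.67 ± 0.20), B2m (-0.37 ± 0.11), Psmb8 (-0.38 ± 0.19), Tap2 (-0.25 ± 0.12) and Tapbp (-0.03 ± 0.08) did not pass either. In that fit 1.03% of all genes were called lower and 0.81% higher, and the median of the members was -0.55 against 0.01 over all genes. Without the replicate term none of the 10 passed in edgeR, and 0% of all genes did. At an unadjusted p under 0.05 edgeR counted 5 members, where 1.65% of genes were lower, and DESeq2 called 4, where 0.245% of genes were called lower. Leaving out 1 library moved the count with the block to 6 (low replicate 1), 5 (high replicate 1) or 1 (high replicate 2, low replicate 2 or 3, middle replicate 3), and to 0 without middle replicate 1 or 2. For these fits too the share of all genes called is not given here.

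The low libraries lay above all middle libraries for 6 members, the same as for high against low except Psmb8, where 4.2% of genes met this pattern. In replicates 2 and 3 alone, with a block, 6 members fell, namely H2-K1, H2-D1, H2-Q4, H2-Q7, H2-T23 and Tap1, beside 3.58% of genes called lower. Both comparisons use the same low libraries, so a low library that stands high moves both.

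High against middle asks whether the members differ between the 2 stiffer gels. None passed in edgeR in either fit. None did at an unadjusted p under 0.05 either, where 1.48% of all genes did without the term and 10.5% with the block. DESeq2 with the block called no member (1 at an unadjusted p under 0.05) and 0.843% of genes. Estimates with the block lay between -0.24 ± 0.11 for B2m and -0.004 ± 0.11 for H2-D1. Over all genes in edgeR 0% were called without the term and 0.0165% with the block. H2-T23 was the member whose high libraries all lay below its middle ones, a pattern 2.54% of genes met. In replicates 2 and 3 alone no member passed, where 7.37% of genes did in either direction, and B2m came nearest (-0.33 ± 0.10, adjusted p = 0.0522 in edgeR). Standard errors with the block were 0.08 to 0.30 on the log2 scale. A difference of that size, or well above it, could go uncalled, as with B2m (-0.24 ± 0.11, adjusted p = 0.49 in edgeR).

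The size of the high against low difference itself varied with the replicate number. Within replicate 1 H2-K1 was lower by a log2 difference of -1.22, and within replicates 2 and 3 by -0.52 and -0.32. For Tap1 these were -1.45, -0.68 and -0.38, and for Psmb8 -1.09, -0.27 and -0.07. B2m did not follow this order, with -0.65, -0.74 and -0.45.

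A test of that difference, the change in replicate 1 minus the change in replicates 2 and 3, called 5 members by edgeR's quasi-likelihood test, all more negative in replicate 1, beside 5.84% of all genes called in that direction and 2.52% in the other. They were H2-K1 (-0.80 ± 0.13, adjusted p = 0.00311), H2-Q4 (-0.86 ± 0.15, 0.00453), Tap1 (-0.92 ± 0.15, 0.0032), Tap2 (-0.61 ± 0.15, 0.024) and Psmb8 (-0.92 ± 0.15, 0.0035). H2-Q7 (-1.20 ± 0.41, 0.0991), H2-T23 (-0.39 ± 0.14, 0.102), H2-D1 (-0.35 ± 0.14, 0.152), Tapbp (-0.24 ± 0.12, 0.247) and B2m (-0.06 ± 0.16, 0.851) did not pass in the same edgeR fit. With a single library per group in replicate 1, that arm is assumed to vary as replicates 2 and 3 do. Over the groups as a whole, B2m (-0.64 ± 0.10, adjusted p = 0.000177 in edgeR), Tap1 (-0.86 ± 0.18, 0.00446) and Tap2 (-0.47 ± 0.11, 0.00251) were lower in replicate 1 than in replicates 2 and 3, and the other 7 did not pass. These 3 of 10 members compare with 32.5% of all tested genes lower in replicate 1, so the share is near the background. Without low replicate 1 that count was 6 in place of 3.

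**Figure D4:**
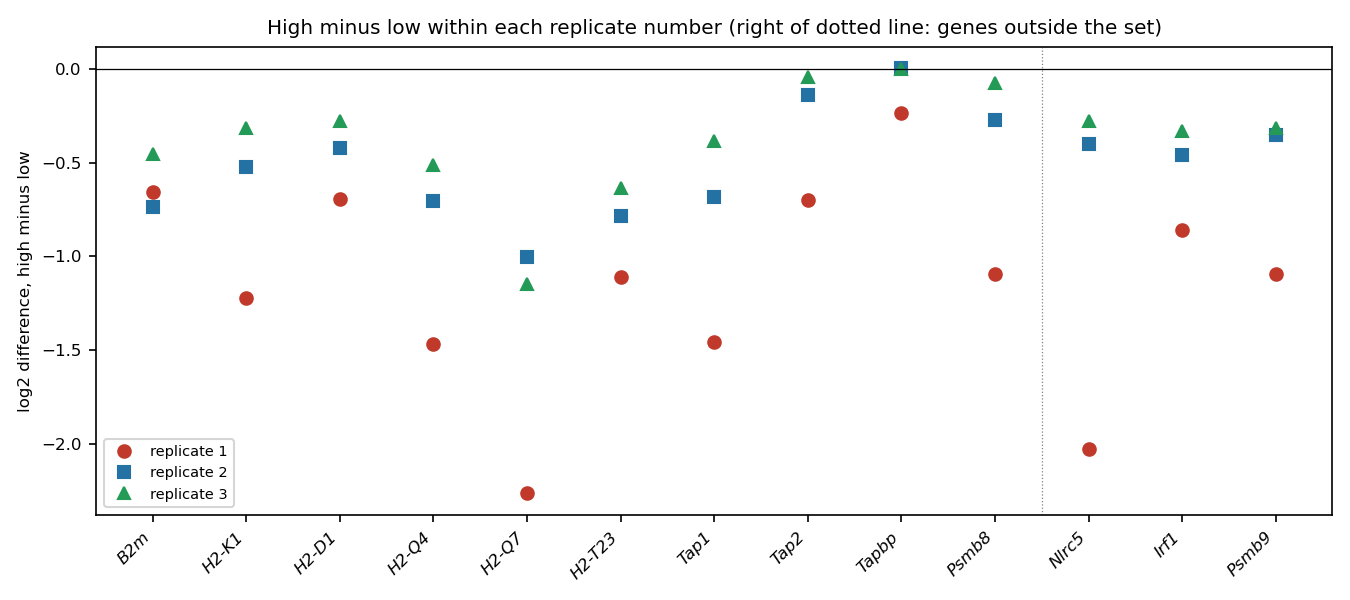
Log2 difference of high minus low within each replicate number, on the y axis, for the 10 members and, right of the dotted line, Nlrc5, Irf1 and Psmb9. Replicate 1 (red circles) lies lowest for every gene shown except B2m, and Tapbp sits near 0 in replicates 2 and 3.

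The 5 heavy chains together gave a level that, like CPM, depends on library scaling, of 2664 ± 388 FPKM (SD, n = 3) in low, 1815 ± 101 in middle and 1774 ± 119 in high. Ratios within a library do not depend on its scaling. The FPKM ratio of B2m to that sum was 2.65 ± 0.80 in low, 2.96 ± 0.80 in middle and 2.52 ± 0.43 in high, so the groups overlapped. H2-K1 and H2-D1 made up 85.0 ± 0.82% of the sum in low, 87.2 ± 0.58% in middle and 87.8 ± 0.37% in high, and the low libraries lay below all others. By these values the classical chains were a slightly larger share of a smaller sum in the stiffer gels. Tap1 over Tap2, per length, was 1.76 ± 0.15 in low, 1.34 ± 0.28 in middle and 1.22 ± 0.23 in high, again without overlap between low and the others. An exact two-sided permutation test of 3 against 3 libraries cannot go below p = 0.1, the value reached by the heavy chain sum, the classical share and the Tap1 to Tap2 ratio in both comparisons with low, and 0.222 after adjustment over the 20 tests of this family.

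Psmb8 replaces the constitutive subunit Psmb5 in the proteasome. Per length, the ratio of Psmb8 to Psmb5 was 1.07 ± 0.29 in low, 0.797 ± 0.44 in middle and 0.657 ± 0.38 in high, and these groups overlapped. Within each replicate number it was lower at each step, at 0.745, 0.293 and 0.230 in low, middle and high of replicate 1, 1.18, 1.11 and 0.790 of replicate 2, and 1.29, 0.990 and 0.950 of replicate 3. With the block Psmb5 rose in high (0.42 ± 0.12, adjusted p = 0.0389 in edgeR), and it was 1.43 ± 0.10 higher in replicate 1 than in replicates 2 and 3 (5.46e-07).

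The rest of the pathway was read from lists with the block fit of high against low, where no list member passed without the block. Of the other class I heavy chain genes 7 were tested, 4 fell and none rose, with a median of -0.77. They were H2-Q9 (-2.12 ± 0.31, adjusted p = 0.00153 in edgeR), H2-Q6 (-1.45 ± 0.42, 0.0487), H2-T22 (-0.77 ± 0.15, 0.0106) and H2-M3 (-0.72 ± 0.17, 0.0151), which presents formylated peptides. H2-Q9 and H2-Q6 are close copies of H2-Q7 and share its uncertainty. H2-Q9 stood at 6.48, 4.01 and 7.30 CPM in low, 2.66, 1.02 and 1.85 CPM in middle and 0.853, 1.13 and 2.01 CPM in high.

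Of the 13 other loading factors and chaperones 1 fell and 3 rose, with a median of 0.15. Tapbpl, a tapasin-related peptide editor, fell by 0.57 ± 0.13 on the log2 scale (adjusted p = 0.0145 in edgeR). Uggt1, a glycoprotein quality sensor (0.31 ± 0.08), Sec61a1, a subunit of the translocation channel (0.30 ± 0.08), and Hspa5, the chaperone BiP (0.31 ± 0.08), rose, and their values are small. Of the 6 immunoproteasome and activator genes 1 fell, Psmb9 (-0.57 ± 0.15, adjusted p = 0.0259 in edgeR), the subunit LMP2, and the third catalytic subunit Psmb10 did not pass (-0.26 ± 0.14, 0.22). Psmb9 stood at 31.9, 39.8 and 36.7 CPM in low, 17.8, 28.5 and 33.1 CPM in middle and 14.9, 31.2 and 29.5 CPM in high. Of the 14 constitutive core genes Psmb5 alone passed, and of 8 cytosolic peptidases Prep (0.44 ± 0.08) and Dpp9 (0.31 ± 0.08) rose and none fell. The constitutive core thus had a median of 0.21 where the members had -0.66.

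Transcription factors with a part in class I expression moved in both directions. Irf1, an interferon-induced activator of class I promoters, fell by 0.55 ± 0.10 on the log2 scale (adjusted p = 0.00479 in edgeR), from 155, 129 and 128 CPM in low to 85.7, 93.8 and 102 CPM in high. Irf8 (-0.70 ± 0.14, 0.00979) and Stat2 (-1.18 ± 0.26, 0.0332, named after its value was seen) fell too in that edgeR fit. The coactivator Nlrc5 stood at 115, 102 and 114 CPM in low, 39.5, 84.6 and 89.4 CPM in middle and 28.2, 77.4 and 93.9 CPM in high. Its low libraries were above all others, but the block fit gave -0.90 ± 0.38 (adjusted p = 0.191, edgeR), and in replicates 2 and 3 alone it fell by 0.34 ± 0.09 (0.00888). Its change in replicate 1 exceeded that in replicates 2 and 3 by -1.70 ± 0.18 (adjusted p = 0.000195, edgeR). Nfkb1 (0.80 ± 0.09) and Prdm1, a repressor (1.13 ± 0.21), rose. A list of interferons, their receptors, the receptors' kinases and Il27 had 9 tested genes, with a median of 0.01. Its ends were Il27 at -0.74 and the kinase Jak2 at 0.40, and the kinase Jak1 was at 0.01 ± 0.09. The interferon receptor genes lay between -0.03 (Ifngr2) and 0.23 (Ifngr1). Ifnb1, the only interferon tested, was at -0.51 ± 0.70 and at most 1.43 CPM.

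Genes whose pattern over the 9 libraries was most like the mean of the members, after the mean of each replicate number was taken out, were Igtp (r = 0.997), Trim12a (0.996), Rnf114 (0.995), H2-T24 (0.993), H2-M3 (0.993) and Isg15 (0.992), out of 9184 genes compared. Before that removal r was 0.940, 0.982, 0.832, 0.736, 0.979 and 0.959. These correlations are a description over 9 libraries that share groups and replicate numbers. Among the members themselves, Tapbp was least like the mean (0.787, and 0.316 before removal) and B2m next (0.884), while the other 8 lay between 0.962 and 0.999. Each member is part of that mean, which raises its r, so these values do not compare with those of the genes outside the set.

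Some cell type markers were also called in high against low with the block, where 8.73% of all tested genes were called lower and 6.72% higher. The summed level of 13 macrophage and monocyte markers was 8535 to 8993 CPM in low, 6816 to 7596 in middle and 5895 to 7979 in high, with 6 of the 13 lower and 2 higher in high with the block. Gpnmb, which fell by 1.04 ± 0.20 on the log2 scale, carried most of the difference in that sum, but was not the only gene to fall. Without it the sums were 3284 to 5282 CPM in low, 3034 to 5038.5 in middle and 3370 to 4753 in high. These overlap, with replicate 1 the lowest library of each group. The others called lower were C1qa (-1.27 ± 0.25), C1qc (-1.16 ± 0.22), Mertk (-0.94 ± 0.12), Fcgr1 (-0.85 ± 0.19) and Ly6c2 (-0.47 ± 0.12). Csf1r rose by 0.59 ± 0.10 and Adgre1 by 0.38 ± 0.10. Dendritic cell markers summed to 157 to 228 CPM in low, 117 to 130 in middle and 98.5 to 122 in high (2 of 7 tested lower), where Bst2, itself interferon-inducible, gave most of the sum. Without Bst2 it was 36.4 to 66.9 CPM in low and 28.0 to 38.1 in high, which overlap. Neutrophil markers had 4 of 12 lower and 1 higher. T cell markers summed to 25.985 to 47.1 CPM in low and 15.9 to 24.5 in high (1 of 6 tested lower). Cd28, the 1 that was lower, gave the larger part of the mean sum in both: without it the markers summed to 3.85 to 11.5 CPM in low and 2.49 to 8.22 in high, which overlap. Stroma and endothelium markers summed to 33.8 to 44.98 CPM in low and 23.7 to 27.8 in high (2 of 5 lower). Of the B cell markers 1 of 6 tested was lower, of the eosinophil, basophil and mast cell markers 2 of 6, of the megakaryocyte markers 2 of 5, and of the progenitor markers 3 of 6. Erythroid markers summed to 456 to 549 CPM in low and 232 to 807 in high, and none of the 6 tested was called. All 6 natural killer cell markers were under 1 CPM in every library. No marker of the 11 lists was at 0 in every library. The part of these cells in the class I result was not tested.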

How the data were processed

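RNA-seq was measured in 9 libraries, 3 per gel stiffness. Per the labels' protocols, poly(A) RNA went into a stranded kit and was read as pairs. The submitters' processing notes name HISAT2 2.0.1, HTSeq 0.6.1, cutadapt 1.9.1, DESeq2 and GRCm39, while settings and annotation were not given in the sources used here. For 22173 genes, the deposited files give raw counts, the authors' FPKM and, as another kind of value, an exonic size. FPKM recomputed from these differed by at most 0.005, and FPKM printed here are TMM-scaled.

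Counts were fitted in edgeR 4.0.16 (R 4.3.3) with TMM, filterByExpr (12094 genes, at least 99.92% of each library's counts) and a robust quasi-likelihood model over all 9 libraries. P-values were two-sided and Benjamini-Hochberg adjusted over all tested genes, with a threshold of 0.05. The script was tested on simulated data. The biological coefficient of variation was 0.337 without and 0.115 with the replicate block. After removal of group means, same-numbered libraries correlated at 0.640 to 0.886 (9 pairs). Replicates 2 and 3 correlated at 0.587 to 0.749 with each other, and replicate 1 at -0.817 to -0.680 with either, so most of this structure is replicate 1 against the rest. The labels do not state what a number shares. Chi-square per degree of freedom within groups was at least 5.25, so no library was a plain resequencing of another in its group. The value cannot tell separate preparations of the same RNA or culture from separate cultures. It was 5.25 to 12.0 between replicates 2 and 3 and at least 147 between replicate 1 and either.

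The members and all 22 lists (224 symbols, 213 in the files) were chosen with earlier results of these data known. Of each list, the text names up to 4 called genes with the smallest adjusted p, else the most abundant, and always Nlrc5, Irf1, Psmb9, Psmb10 and Psmb5. A further gene of that rule is not reported here. Pattern likeness used genes averaging 5 CPM or more. Alternatives were DESeq2 1.42.0, RLE size factors, no filter, pairs of groups alone, the block, and leaving out libraries or replicate numbers. Figures used matplotlib 3.10.9 in Python 3.11.15.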

Additional observations from a re-analysis of the deposited data

Results flagged for a closer look

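The high against low difference was more negative in replicate 1 than in replicates 2 and 3 by an edgeR test of that difference for H2-K1 (-0.80), H2-Q4 (-0.86), Tap1 (-0.92), Tap2 (-0.61) and Psmb8 (-0.92), all on the log2 scale. These 5 of the 10 members passed, beside 5.84% of all tested genes called in that direction. The test was chosen with replicate 1 already known to stand apart. Replicate 1 also had a summed neutrophil marker level of 3650 to 4338 CPM against 14166 to 19275 in the other libraries. The same test, which concerns the high against low change and not the level, called some markers. That change was more positive in replicate 1 for 5 of 12 neutrophil markers and more negative for 1. For all 6 tested erythroid markers it was more positive (median 1.86). Of 13 macrophage and monocyte markers it was more positive for 5 and more negative for 2. Over all genes 2.52% were called more positive. The part of these in the difference was not tested.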

How the results depend on the processing

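Counts of members called moved with the replicate term, the tool and the libraries kept. The share of all genes called is given for some of these settings only, so elsewhere a count may move with calls over all genes. For high against low, 0 were called by edgeR without the replicate term, 5 by DESeq2 without it, 7 with the replicate block, 8 with the block in DESeq2, 6 with the block and no filter and 7 with the block and RLE size factors. Leaving out libraries or replicate numbers gave 0 to 7 without the block and 0 to 8 with it. The 0 with the block came without replicate 2, and without replicate 3 the count was 4. For middle against low, the counts were 0 without the term, 4 by DESeq2, 2 with the replicate block, 7 with the block in DESeq2, 3 with the block and no filter and 4 with the block and RLE size factors. Leaving out libraries or numbers gave 0 to 6 both without and with the block. The 6 came without replicate 1 of every group in both, and without low replicate 1 alone with the block only. High against middle gave 0 under all settings run. Members lower in replicate 1 than in replicates 2 and 3 numbered 3, and 3 to 6 with a library left out, 6 without low replicate 1. Members whose change differed by replicate number were 4 to 6 against 5. Over all genes, high against low called 11 without and 1056 lower and 813 higher with the block, middle against low 0 without and 124 lower and 98 higher with it, and high against middle 0 and 2. No member called with all 9 libraries, with or without the block, had the other sign under any setting run of that comparison. Of members called in fewer settings, H2-K1, H2-Q4, H2-T23 and Psmb8 were each called in 1 setting for replicate 1 against replicates 2 and 3 and had the other sign, uncalled, in 1, 2, 1 and 4 settings. Among uncalled values, Tapbp changed sign in 3 settings for high against low and in 5 for middle against low, 8 members did so in 48 cases for high against middle and 6 in 12 for replicate 1 against replicates 2 and 3, and B2m in 1 for the difference by replicate number. With 3 libraries per group, and 43 to 213 counts per library for H2-Q7, small changes were not detectable at this depth.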

Other observations

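Genes beside the classical pathway moved in both directions in high against low with the replicate block, and none of those named here passed without it. With the block 8.73% of all tested genes were called lower and 6.72% higher. Of 9 tested class I-like molecules 2 rose and 1 fell. Procr, the endothelial protein C receptor, rose by 1.39 ± 0.12 on the log2 scale and stood at 39.3, 11.98 and 11.6 CPM in low and at 115, 25.8 and 32.8 CPM in high. Its groups overlapped because replicate 1 was highest in each, and high was above low within every replicate number. Cd1d1, which presents lipids, rose by 1.18 ± 0.20. Mr1, which presents vitamin B metabolites, fell by 0.91 ± 0.22 (adjusted p = 0.0174, edgeR).

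Of 10 genes listed as receptors for class I or class I-like ligands 1 rose and 1 fell, which is near the share over all genes. Pirb, an inhibitory receptor of myeloid cells, rose by 0.30 ± 0.09 (adjusted p = 0.0412, edgeR), and Klrk1, the receptor NKG2D, fell by 1.74 ± 0.43 (0.0196). The level of Klrk1 was low, at 0.370 to 2.55 CPM and 5 to 47 counts per library. Of these 10 receptors 9 were lower in replicate 1 than in replicates 2 and 3, with a median of -1.22, where 32.5% of all tested genes were lower. Of 12 genes of class I surface turnover Ehd1, which recycles endocytosed receptors, alone passed and rose by 0.92 ± 0.09 (adjusted p = 0.000161, edgeR). The 14 constitutive proteasome core genes were higher in replicate 1 in 13 cases, with a median of 0.71, where 32.9% of all tested genes were higher.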
